A study of Mus musculus with 12 samples.

Results

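The cytosolic ribosomal protein genes were taken as the protein-coding mouse genes whose symbol is Rpl, Rps or Rplp followed by a number and an optional letter a, l, x or y, together with Rpsa. Kinase genes named Rps6k and pseudogenes named with -ps were left out. Of 55401 gene IDs in the count tables, 81 met this rule: 47 genes of the large subunit, the 3 genes of its P-stalk (Rplp0, Rplp1 and Rplp2) and 31 genes of the small subunit. A further 3 symbols of the same form (Rpl32l, Rpl6l and Rps4l) are not annotated as protein-coding and were not counted. A few core ribosomal proteins carry other names and also stand outside the rule, among them Rps3a1, Fau and Rack1.

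The ribosome is built from a small subunit, which reads the mRNA, and a large subunit, which joins amino acids, and each ribosomal protein is normally present in it as a single copy apart from the stalk proteins. Their mRNAs are among the most abundant of a cell, have short transcripts and many processed pseudogenes, and usually begin with a run of pyrimidines, the 5′ terminal oligopyrimidine (TOP) tract, through which the kinase mTORC1 and the protein LARP1 set how strongly they are translated. In macrophages and monocytes, ribosomal protein mRNA levels are known to differ with the state of the cell and with growth signals.

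The study sorted CD45+/CD11b+/Ly6G- myeloid cells from mouse hind paws 4 h after an injection of saline or of 1% carrageenan, a seaweed polysaccharide that provokes acute inflammation. FABP5Flox mice (called Flox here) were set against FABP5Flox/LysM-Cre mice (called LysMCre), in which Cre is expressed from the lysozyme gene Lyz2, active in myeloid cells, to delete Fabp5. All groups carry the floxed allele, and no group had the Cre without it, so effects of the Cre, of its insertion in Lyz2 and of the loss of Fabp5 cannot be told apart. The 4 groups were Flox saline, Flox carrageenan, LysMCre saline and LysMCre carrageenan, with 3 libraries each, and each library pooled the cells of 3 or 4 adult mice. Pools are named by the mouse numbers in their titles: 1-3, 4-7 and 8-10 in Flox, and 1-4, 5-8 and 9-12 in LysMCre.

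Reads on genes ranged from 111925 to 994161 in the Flox libraries and from 508407 to 2987015 in the LysMCre libraries, a 4.99-fold difference of geometric means, so depth and genotype cannot be told apart. The sorted identity was checked on genes picked for that purpose. Ptprc (CD45) and Itgam (CD11b) were read in all 12 libraries, at 219 to 594 and 295 to 376 normalized counts on the common scale described below. Ly6g was read 4 times in all, in 3 libraries, and the neutrophil granule genes Camp and Ngp had no read, while Mmp8, also a neutrophil granule gene, had 531 reads in 11 libraries and Cxcr2, a neutrophil receptor, 26 reads in 7. Markers of other tissues were also read on this scale. The 6 keratinocyte markers summed to 259 to 687 in Flox saline and 753 to 1526 in LysMCre saline. As shares of reads these ranges overlapped. In carrageenan they summed to 480 to 737 in Flox and 598 to 1041 in LysMCre. The 6 fibroblast markers summed to 38.6 to 558 and 254 to 640 in Flox and LysMCre saline. In carrageenan they summed to 693 to 1200 and 678 to 1017. Whether such cells were carried into the sort was not tested. Fabp5, the targeted gene, was read in every library, 1, 15 and 21 times in Flox saline and 18, 16 and 19 times in LysMCre saline. In carrageenan it was read 17, 29 and 45 times in Flox and 18, 39 and 15 times in LysMCre. On the common scale this was 34.0 to 98.0 in Flox carrageenan and 6.12 to 23.0 in LysMCre carrageenan, groups that did not overlap. In saline the ranges of 5.51 to 35.0 and 4.05 to 11.2 overlapped. Whether the counted 3′ end lies in the deleted part is not given in the sources used here, so these reads may not check the deletion.

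All 81 genes had at least 1 read in some library, and 76 had a read in every library. The filter was passed by 77 of them in each comparison, and the 4 below it are named for completeness. Rpl10l, Rpl3l and Rpl39l, copies of Rpl10, Rpl3 and Rpl39 known from testis or muscle, had 3, 7 and 25 reads over all libraries, against 2969 for Rpl10. Rpl24, a large-subunit gene that is not such a copy, had 26 reads. Only 2 of them came from the deepest library, LysMCre saline 5-8, with 2987015 reads on genes. Why its count was so low was not tested, and the count does not show that the gene is little expressed. Processed copies complicate counting, because 299 annotated pseudogenes carry a ribosomal protein name with -ps and 149 of them had reads. The read counter's handling of reads that match both a gene and its copies is not given in the sources used here, so the value of a gene with such copies is uncertain.

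To show what the transcripts share at their beginning, 30 bases around the annotated start were read from RefSeq promoters on GRCm38.p6, 10 before the start and 20 from it on, where the table has the gene. The examples are large- and small-subunit genes described below, with the longest run of at least 6 pyrimidines in capitals.
Rpl35 (chr2:39005112-39005141, minus strand): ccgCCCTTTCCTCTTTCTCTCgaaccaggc
Rpl35a (chr16:33056472-33056501, plus strand): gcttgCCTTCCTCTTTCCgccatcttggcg
Rpl27a (chr7:109519185-109519214, plus strand): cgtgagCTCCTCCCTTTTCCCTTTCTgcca
Rps6 (chr4:86857348-86857377, minus strand): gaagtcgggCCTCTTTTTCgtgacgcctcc
Rps9 (chr7:3704031-3704060, plus strand): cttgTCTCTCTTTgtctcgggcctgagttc
Rps27 (chr3:90213629-90213658, minus strand): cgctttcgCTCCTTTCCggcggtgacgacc
Rps27l (chr9:66946076-66946105, plus strand): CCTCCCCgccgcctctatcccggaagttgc
Rpl10 (chrX:74270806-74270835, plus strand): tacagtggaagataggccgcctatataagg
In the first 6 the pyrimidine run covers the annotated start, and of the 3 starts listed for Rpl35a only the one shown has a run. In the Rps27l window the run lies before the start, and the Rpl10 window has none. The table held 61 of the 81 genes. A run of at least 6 pyrimidines lay in this window for 37 of them (60.7%), against 32.1% of the 27025 genes with a promoter. Annotated starts can lie away from the used start, so a window without a run says nothing about the transcript made.

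Over the 300-base promoters (250 bases before the start and 50 after), searched on both strands, the letters CTTTCC were present in 54.1% of these genes and in 29.3% of all genes. CTCTTT, which can overlap it by up to 4 letters, was present in 44.3% and 25.6%. CCGGAAG, the core bound by ETS-family factors, was present in 41.0% and 9.93%, and the TATA-box letters TATAAA in 9.84% and 15.7%. These are matches of letters and are not shown to be sites.

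The summed share of reads on the 81 genes differed widely within 3 of the 4 groups. In Flox saline the shares were 2.35%, 4.65% and 4.99% (pools 1-3, 4-7 and 8-10, 4.00 ± 1.44%, mean ± SD, n = 3). In Flox carrageenan they were 5.77%, 4.72% and 5.46% (5.31 ± 0.536%). Pool 1-3 of Flox saline, the shallowest library of the study, was the low one, and pool 8-10 of Flox saline lay inside the Flox carrageenan range, so the groups overlapped. LysMCre saline gave 2.45%, 2.26% and 4.22% (pools 1-4, 5-8 and 9-12, 2.97 ± 1.08%). LysMCre carrageenan gave 2.15%, 2.39% and 5.59% (3.38 ± 1.92%). Pool 9-12 held the highest share of its LysMCre group under both treatments, and the other 4 LysMCre libraries lay within 2.15 to 2.45%. The binomial 95% intervals (counting error only) were narrow beside these differences, and the widest, that of the shallowest library, ran from 2.26 to 2.44%.

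**Figure D1:**
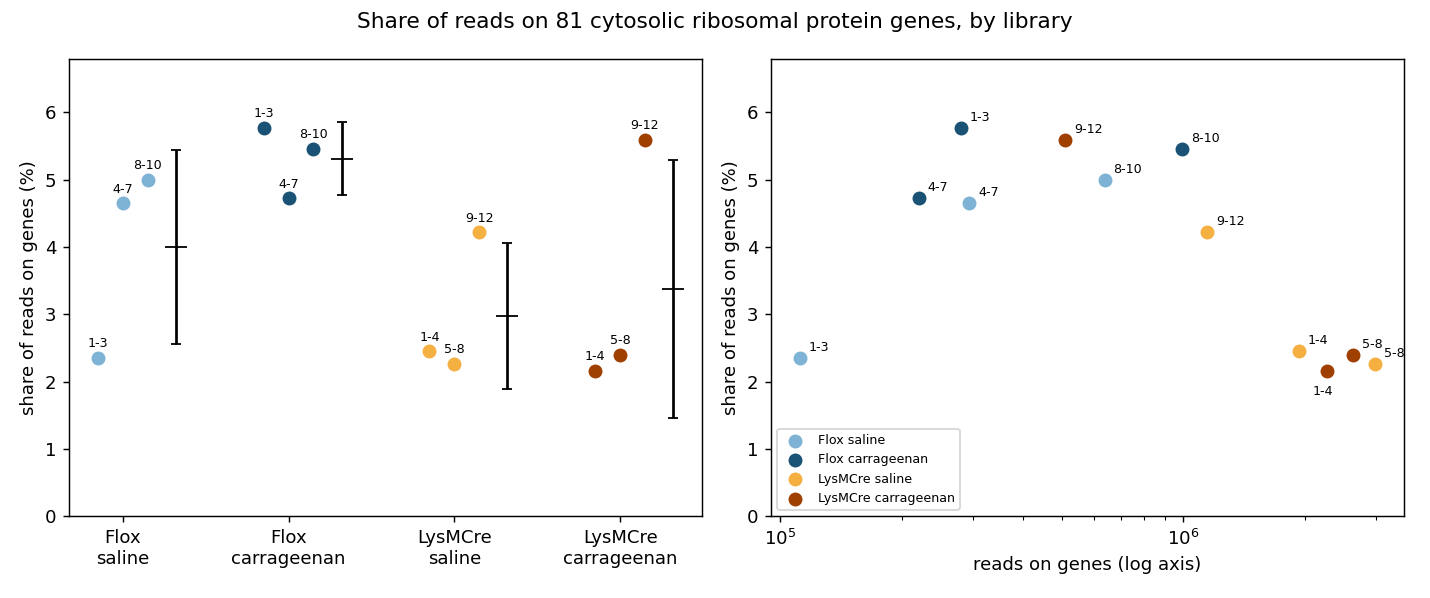
Share of reads on genes (%) that fell on the 81 cytosolic ribosomal protein genes. Left: by group, each point a library labelled with its pool, bars showing mean and SD (n = 3). Right: the same shares against reads on genes (log axis). The 4 deepest libraries lie at 2.15 to 2.45%, 7 libraries of intermediate depth at 4.22 to 5.77%, and the shallowest, Flox saline 1-3, at 2.35%.

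Depth stood beside the share without a single direction. The 4 libraries with the most reads, LysMCre pools 1-4 and 5-8 of both treatments, had 1931668 to 2987015 reads and low shares. The 7 libraries with 220463 to 1145606 reads, from all 4 groups, had shares of 4.22 to 5.77%. The shallowest, with 111925 reads, had 2.35%. Whether depth, or something that moved with it, has a part in the share was not tested. Marker lists of myeloid states were read beside the share. The 8 monocyte markers summed to 0.373 to 0.421% of reads in Flox carrageenan and to 0.461% in LysMCre carrageenan 9-12, against 0.147% and 0.213% in the other LysMCre carrageenan libraries. The 12 resident macrophage markers summed to 0.362 to 0.471% in Flox carrageenan, to 0.430% in LysMCre carrageenan 9-12 and to 0.778% and 0.730% in pools 1-4 and 5-8. In saline, Flox saline 1-3 was at 1.16%, below 1.41% and 1.38% in the other Flox pools, and LysMCre saline 9-12 at 1.53% lay between 1.47% and 1.57%. The monocyte markers in saline were at 0.178% in Flox 1-3 against 0.271% and 0.286%, and at 0.292% in LysMCre 9-12 against 0.210% and 0.174%. The 28S ribosomal RNA entry, which is not a gene in these comparisons, took 2.13% of all reads in LysMCre carrageenan 9-12 and 0.341% and 0.425% in the other libraries of its group. The largest entry of this kind took 0.885 to 2.23% in the Flox libraries. It took 1.06% in LysMCre saline 9-12, against 0.512% and 0.170% in LysMCre saline 1-4 and 5-8. The part of cell makeup in these results was not tested, and in bulk samples fewer cells of a type and less RNA per cell cannot be told apart.

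The proportion of the subunits differed by genotype in saline, which was not tested. Large-subunit genes with the P-stalk held 0.978 to 1.34 times the reads of small-subunit genes in every library. This ratio was 1.22 ± 0.105 in Flox saline and 1.19 ± 0.0301 in Flox carrageenan (mean ± SD, n = 3). It was 1.06 ± 0.0645 in LysMCre saline and 1.05 ± 0.103 in LysMCre carrageenan. In saline every LysMCre library (0.989 to 1.12) was below every Flox library (1.14 to 1.34). In carrageenan the ranges overlapped, with 0.978 to 1.17 in LysMCre and 1.15 to 1.21 in Flox. The 5 genes with the most reads were Rplp1 (22388 reads over 12 libraries, 5.18% of all reads on the 81 genes), Rps24, Rps13, Rpl23 and Rps9. These are reads of 3′ ends, and the level of a gene is used below only to order the genes.

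**Figure D2:**
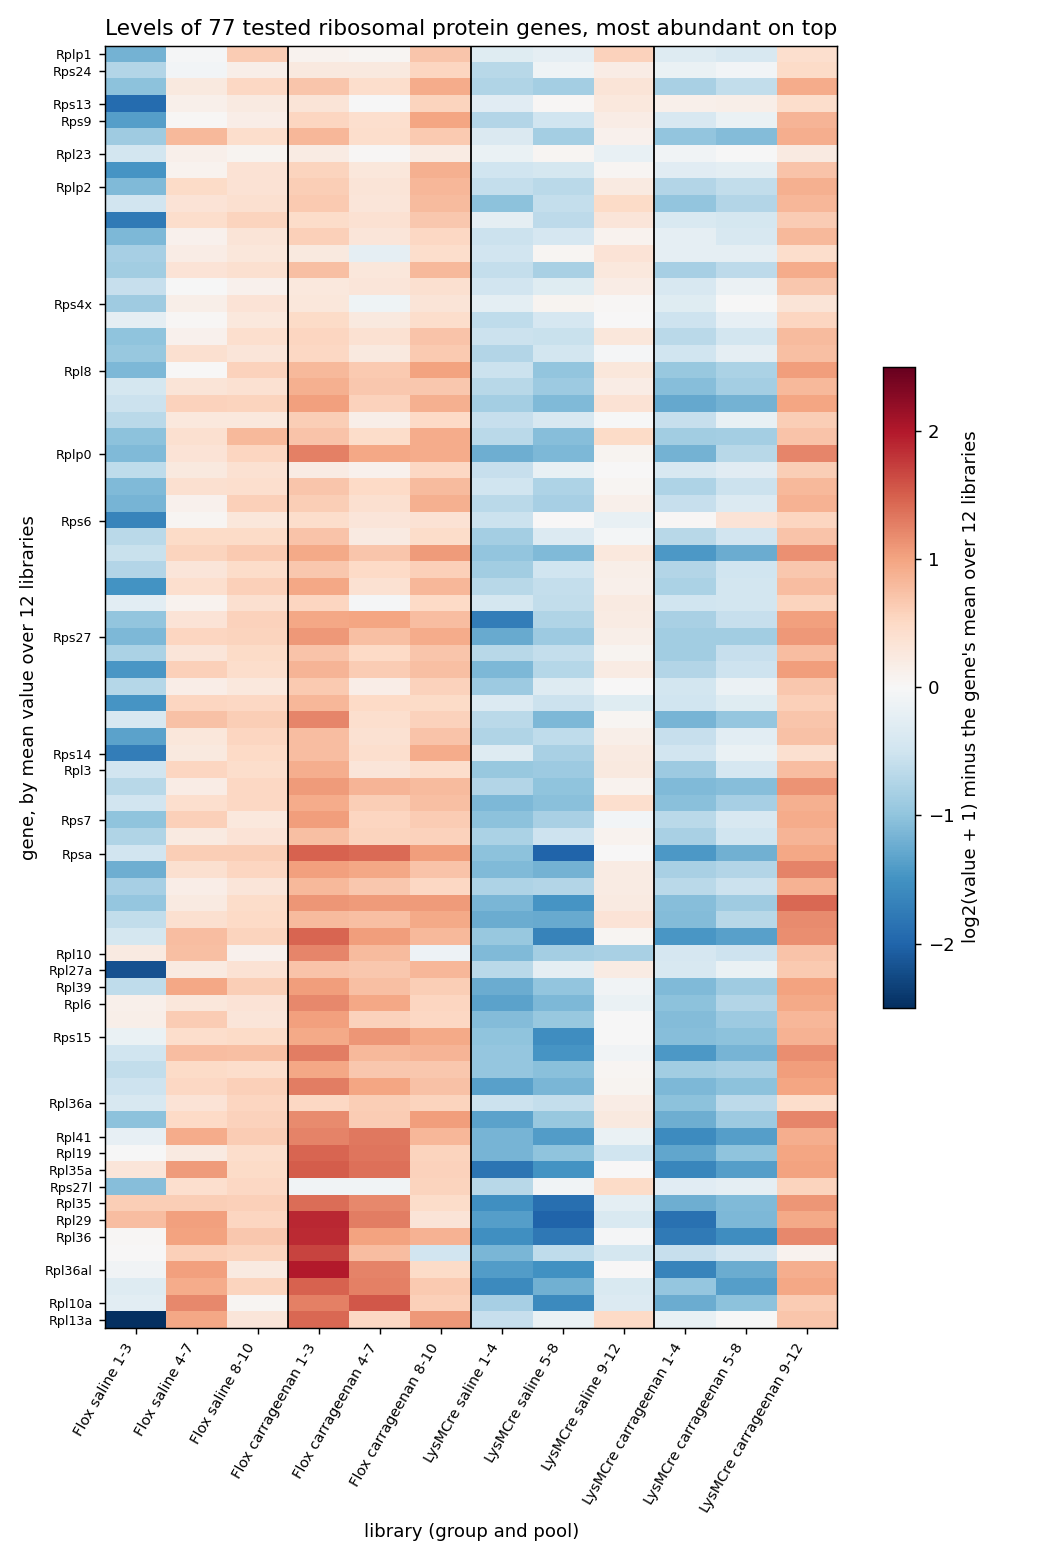
Levels of the 77 tested genes (rows, ordered by mean over 12 libraries with the most abundant on top, and labelled where the text gives the gene's values) in the 12 libraries (columns, grouped as Flox saline, Flox carrageenan, LysMCre saline, LysMCre carrageenan). Colour is log2(value + 1) minus the gene's own mean. Flox saline 1-3 holds the lowest value of 32 genes and LysMCre carrageenan 9-12 the highest of 34.

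To compare treatments, all libraries were put on a common scale, and the values given below are normalized counts on it. Seen gene by gene, 32 of the 77 genes had their lowest value in Flox saline 1-3, 20 had it in LysMCre saline 1-4, 13 in LysMCre saline 5-8 and 11 in LysMCre carrageenan 1-4. LysMCre carrageenan 9-12 held the highest value of 34 genes and Flox carrageenan 1-3 of 27. In LysMCre carrageenan 9-12 all 77 genes lay above their own mean over the 12 libraries, whereas in pools 1-4 and 5-8 of that group 2 genes did in each. The genes thus moved largely together, but not by the same amount. Rpl23, a large-subunit protein that faces the small subunit, ranged from 479.7 to 778, with an SD of 0.20 on the log2 scale over the 12 libraries. Rpl29 and Rpl36, also large-subunit genes, had SDs of 1.31 and 1.32.

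Carrageenan was set against saline in Flox cells to ask how the myeloid cells of the inflamed paw differ. The fitted log2 fold change of all 77 genes was above 0, with a median of 0.68 against 0.10 over the 10240 genes tested. No ribosomal protein gene passed the test (limma adjusted p under 0.05 over all genes), where 4.42% of all genes passed as higher and 2.74% as lower. The smallest adjusted p among the 77 was 0.147, and 4 of them had an unadjusted p under 0.05. With the pool number as a replicate block these were 0.0531 and 31 (limma), and with 1 library left out the count ran from 0 (without Flox saline 1-3) to 21 (without Flox saline 8-10). No count of unadjusted p over all genes is given beside these, so they show no excess over the background. Without overlap of groups, 32 of the 77 were higher in every carrageenan library than in any saline library. This pattern was shown by 13% of all genes in this direction and by 9.97% in the other. None of the 77 showed the other. Large-subunit, P-stalk and small-subunit genes had medians of 0.66, 0.68 and 0.75.

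Rps9, a small-subunit protein near the entry of the mRNA, had the smallest p. Its values were 254, 678 and 746 in Flox saline and 963, 892 and 1321 in Flox carrageenan. Every carrageenan library was higher, and saline pool 1-3 was the low one (log2 fold change 1.05 ± 0.42 SE, limma adjusted p = 0.147). Rpl27a, a large-subunit protein, gave 44.1, 238 and 260.4 in saline and 331, 321 and 359 in carrageenan. Its 44.1 rests on 8 reads in pool 1-3, and the groups did not overlap (1.26 ± 0.52, limma adjusted p = 0.160). Rps14, of the small subunit, had 1.04 ± 0.47, with overlapping groups. Rpl13a, known for a second role as a translation inhibitor released in inflamed monocytes, had the largest value, 2.13 ± 1.02, which rests on the absence of reads in saline pool 1-3, where 3 reads would stand for 16.5. Its other Flox saline values, 46.6 and 28.9, lay near its carrageenan values of 65.1, 33.8 and 50.6.

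The P-stalk carries the elongation factors to the ribosome. Rplp0, its base, was at 159.9, 440.4 and 505 in Flox saline and at 828, 676 and 660.0 in Flox carrageenan. All carrageenan libraries were above all saline ones (1.12 ± 0.55, limma adjusted p = 0.239). Rplp1 gave 518, 1160 and 1826 against 1250, 1230 and 1912, groups that overlapped widely (0.47 ± 0.41). Rplp2 gave 259, 788 and 724 against 859, 706 and 1004, again with overlap (0.68 ± 0.46). Rpsa, the small-subunit protein also known as the laminin receptor precursor, was at 149, 319 and 316 in saline and 575, 551 and 428 in carrageenan, without overlap (1.05 ± 0.58, limma adjusted p = 0.290). Rps27l, the p53-responsive copy of Rps27, had the lowest value of the 77 at 0.17 ± 0.43, while Rps27 itself was at 0.93 ± 0.54.

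The size in Flox rests in good part on saline pool 1-3. Without that library the median of the 77 genes was 0.28, and 0 passed the test. Leaving out any 1 of the other 11 libraries gave medians of 0.62 to 0.88. Over the same groups, of the 12 resident macrophage markers 9 fell and none rose, with the scavenger receptor Cd163 at -1.98 ± 0.24. Of 8 monocyte markers 6 rose (Ly6c2 3.39 ± 0.55), as did 5 of 6 tested neutrophil markers (S100a9 6.13 ± 0.94, all limma adjusted p under 0.05). Their part in the ribosomal protein values was not tested.

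**Figure D3:**
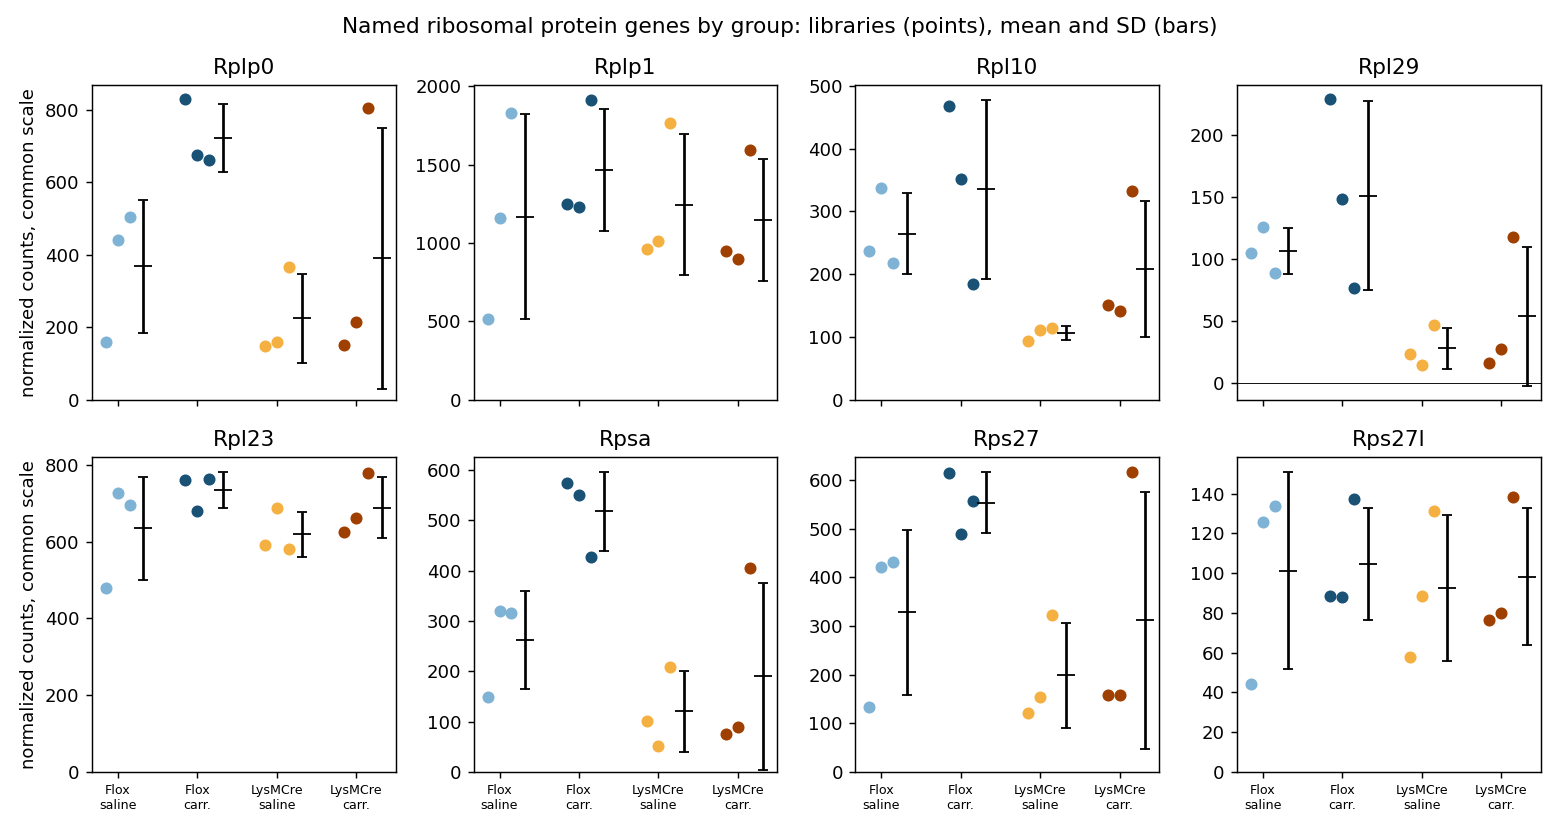
Normalized counts on the common scale of 8 named genes in each library (points, pools in ascending order within a group), with mean and SD (bars, n = 3). Rplp0 and Rpsa are higher in every Flox carrageenan library than in Flox saline, Rpl10 and Rpl29 are lower in every LysMCre saline library than in Flox saline, and Rpl23 stays between 479.7 and 778.

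In LysMCre cells the same comparison gave smaller values. Of the 77 genes, 74 had a fitted log2 fold change above 0, with a median of 0.30 against -0.07 over all 10240 genes. None of them passed the limma test, where 2.1% of all genes passed as higher and 0.547% as lower, and 1 (Rpl10) had an unadjusted p under 0.05. Only Rpl10 and Rps6 were higher in every carrageenan library without overlap, where 12.6% of all genes showed this and 17% were apart in the other direction. Rpl10, which closes the assembly of the large subunit, was at 92.9, 111 and 114 in LysMCre saline and at 151, 141 and 333 in LysMCre carrageenan. The 3 saline libraries were close together, and pool 9-12 stood out in carrageenan (0.85 ± 0.37, limma adjusted p = 0.377). Rps6, the small-subunit protein phosphorylated downstream of mTORC1, was at 251, 366 and 319 against 374, 461 and 526 (0.54 ± 0.39, limma adjusted p = 0.811). Rpl35, Rpl6 and Rps7 were next by p (0.81 ± 0.55, 0.61 ± 0.43 and 0.58 ± 0.45). Rplp1 had the lowest value, -0.11 ± 0.41, and Rplp0 and Rplp2 gave 0.53 ± 0.55 and 0.20 ± 0.46.

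Rplp0 shows the pool pattern plainly. Its values were 148, 159 and 365 in LysMCre saline and 151, 214 and 804 in LysMCre carrageenan, with pool 9-12 the highest each time. Rpsa was at 101, 51.1 and 209 in saline and at 75.4, 89.5 and 405 in carrageenan, with the same pool on top (0.44 ± 0.58). Without LysMCre carrageenan 9-12 the median of the 77 genes was -0.19, so its sign turned. Rplp0 then stood at -0.19 and Rpsa at -0.32. The median was 0.14 without LysMCre saline 1-4, 0.19 without saline 5-8, 0.57 without saline 9-12 or carrageenan 1-4, and 0.49 without carrageenan 5-8, so it moved with each LysMCre library.

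The difference between the carrageenan effects of the genotypes was tested directly. The median of the 77 genes was -0.40 (LysMCre minus Flox, log2), against -0.12 over all 10240 genes, and 73 of the 77 were below 0. None passed the limma test, nor did any other gene (0 called in either direction), and 0 of the 77 had an unadjusted p under 0.05, against 246 of all genes. The smallest p was that of Rpl27a (-1.0 ± 0.73, 95% interval -2.57 to 0.57, limma adjusted p = 0.966). Rpl13a, Rps14 and Rpl8 followed (-1.88 ± 1.45, -0.82 ± 0.66 and -0.82 ± 0.72), and Rpl10 had the highest value (0.59 ± 0.52). Without Flox saline 1-3 the median was 0.02, and without LysMCre carrageenan 9-12 it was -0.93. It was -0.08 without LysMCre saline 9-12 and also without LysMCre carrageenan 1-4, and -0.18 without LysMCre carrageenan 5-8. These data do not show that the effects differ.

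**Figure D4:**
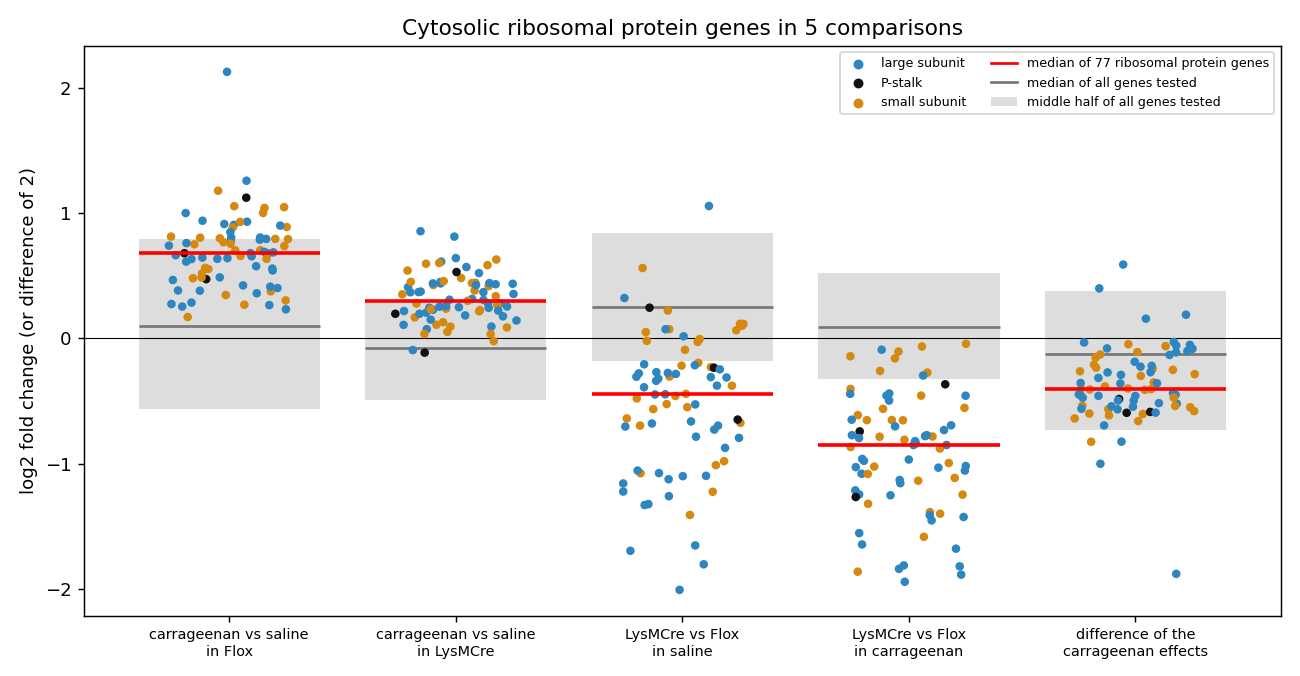
Fitted log2 fold changes of the 77 tested genes in the 5 comparisons, coloured by large subunit, P-stalk and small subunit. Red lines are the medians of the 77 genes (0.68, 0.30, -0.45, -0.85 and -0.40), grey boxes and lines the quartiles and the median of all genes tested. The horizontal spread of points has no meaning.

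LysMCre was set against Flox separately in saline and in carrageenan, with the deposited normalized counts, whose scale differs from the common scale by 1 factor per library (the medians on the common scale were -0.48 in saline and -0.86 in carrageenan). In saline, 64 of the 77 genes had a value below 0 in LysMCre against Flox. Their median was -0.45, against 0.25 over the 9371 genes tested. It was -0.89 without Flox saline 1-3, with all 77 below 0, and -0.70 without LysMCre saline 9-12. Without Flox saline 1-3, 55 of the 77 had an unadjusted p under 0.05, with no such count over all genes beside it. Limma called 0 of the 77 and 0 of all 9183 genes tested in that setting. Without any 1 of the other 4 libraries the median lay between -0.31 (without LysMCre saline 5-8) and -0.23 (without Flox saline 8-10, with 52 below 0). With limma, 0 of all genes passed the threshold in either direction (0% called higher, 0% lower), although 17 of the 77 and 508 of all genes had an unadjusted p under 0.05. Of the ribosomal protein genes 8, among them 7 of the large subunit, were lower in every LysMCre library than in any Flox library, which 5.23% of all genes were. None of the 77 was higher without overlap, as 10.4% of all genes were. The medians of large-subunit, P-stalk and small-subunit genes were -0.66, -0.23 and -0.30.

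Rpl10 had the smallest p. Its Flox saline values of 237, 338 and 219 all exceeded the LysMCre saline values of 92.9, 111 and 114 (-1.26 ± 0.26, 95% interval -1.85 to -0.67, limma adjusted p = 0.683). Rpl29, a basic large-subunit protein, was at 105, 126 and 88.9 against 23.0, 14.4 and 46.4 (-2.01 ± 0.43, limma adjusted p = 0.683). Its reads were 19, 54 and 83 in Flox and 68, 57 and 79 in LysMCre, so the reads themselves were similar and the depths were not. Rpl35, at the tunnel exit of the large subunit, was at 116, 117 and 115 against 25.3, 19.7 and 63.5 (-1.80 ± 0.43). Rpl19 and Rpl35a, which also belong to the large subunit, had values of -1.07 ± 0.29 and -1.69 ± 0.48, and both sets of groups did not overlap. DESeq2 on the recovered reads called Rpl10 (-1.32, adjusted p = 0.0341) and Rpl29 (-1.94, adjusted p = 0.0180) lower, among 23 genes in all, and edgeR called 0. The authors' deposited table has an adjusted p under 0.05 for 2 of the 77 genes with such a value, again Rpl10 and Rpl29, with log2 fold changes of -1.18 (adjusted p = 0.0106) and -1.53 (adjusted p = 0.0256). The share of all genes that passed there was not counted, so these 2 calls have no background beside them. Rpl13a had the highest value, 1.06 ± 1.33, which again rests on the absence of Rpl13a reads in Flox saline 1-3 and was -0.71 without that library.

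Copies of the same protein are given side by side. Rps27l was at 44.1, 126 and 134 in Flox saline and at 57.8, 88.6 and 131 in LysMCre saline (-0.02 ± 0.50), while Rps27 had -0.64 ± 0.54. Rpl36al, a copy of Rpl36a, was at 44.1, 95.5 and 54.7 against 17.2, 15.7 and 47.0 (-1.32 ± 0.51). Rpl36a had -0.45 ± 0.35, Rpl3 had -0.68 ± 0.42, Rpl39 had -1.05 ± 0.48, and Rps4x, the X-linked form of that small-subunit protein, had 0.12 ± 0.36. The differences between paralogs were not tested.

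In carrageenan, all 77 genes were lower in LysMCre than in Flox by the fitted value, with a median of -0.85 against 0.09 over the 9151 genes tested. The limma test again called 0 of all genes (0% higher, 0% lower), with 38 of the 77 and 897 of all genes at an unadjusted p under 0.05. Of the 77 genes 5 were lower in every LysMCre library, where 6.19% of all genes were, and 0 were higher, where 8.87% were. The share of the 77 thus lay close to the background. Medians were -0.98 for large-subunit, -0.74 for P-stalk and -0.78 for small-subunit genes.

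Rpsa had the smallest p, with 575, 551 and 428 in Flox carrageenan and 75.4, 89.5 and 405 in LysMCre carrageenan. Pool 9-12 of LysMCre lay just below the lowest Flox library and the other pools far below (-1.86 ± 0.53, 95% interval -3.03 to -0.69, limma adjusted p = 0.497). Rpl10a, a large-subunit protein of the L1 stalk, was at 112, 139 and 70.2 against 19.0, 22.1 and 72.1, with overlap through pool 9-12 (-1.68 ± 0.48). Rpl41, which encodes the shortest ribosomal protein, was at 318, 334 and 237 against 43.8, 50.7 and 250.1, also overlapping (-1.81 ± 0.55). Rps15 had -1.40 ± 0.45 without overlap, and Rpl35a had -1.82 ± 0.60. Rpl36 had the lowest value, -1.94 ± 0.68, and Rps13 the highest, -0.04 ± 0.23 with a 95% interval of -0.56 to 0.47. Of the genes with the most summed reads, Rplp1, Rps24, Rpl23 and Rps9 had -0.37 ± 0.29, -0.26 ± 0.24, -0.09 ± 0.21 and -0.55 ± 0.33. The deeper LysMCre libraries weigh most in that sum. By mean value on the common scale Rpl13 (768) and Rps29 (727) were above Rpl23 (669), and they had -0.85 and -1.02. Rplp0 and Rplp2 had -1.26 ± 0.50 and -0.74 ± 0.39. Rps27l and Rps27 had -0.10 ± 0.31 and -1.13 ± 0.46, Rpl36al and Rpl36a -1.88 ± 0.62 and -0.97 ± 0.35, Rpl3 -0.73 ± 0.39, Rpl39 -1.13 ± 0.47 and Rps4x -0.16 ± 0.24. The authors' deposited table has negative log2 fold changes for all 81 genes in carrageenan (median -0.56) and an adjusted p under 0.05 for 0 of them. The share of all genes that passed there was not counted. That median includes the genes below the filter and comes from the authors' own fit. Its size is therefore not comparable with that of the limma median.

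The number of genes called in this comparison, but not the sign of the median, depended on a single library. Without LysMCre carrageenan 9-12, a setting that leaves 2 LysMCre libraries, 60 of the 77 genes passed the limma test as lower, with a median of -1.35. Over all 8908 genes then tested, 293 were called lower (3.29%) and 127 higher (1.43%). The 60 comprised 34 of 43 large-subunit, 2 of 3 P-stalk and 24 of 31 small-subunit genes. The largest values were those of Rpl36 (-2.89, adjusted p = 0.00808), Rpl36al (-2.67), Rpl29 (-2.65), Rpl35a (-2.65) and Rpsa (-2.62, adjusted p = 0.00326). Of the 17 that did not pass, 9 were in the most abundant tercile of the genes, among them Rpl23, Rps13, Rps24 and Rplp1. That library had 508407 reads against 2271231 and 2627107 in its group mates, its macrophage marker share of 0.430% lay within the range of the Flox carrageenan libraries, its monocyte share of 0.461% lay above theirs, and 0.0891% of its reads fell on neutrophil markers against 0.0182% and 0.0258%. In the same groups the 8 monocyte markers all had negative genotype values with the library included (median -0.80, 0 called by limma, 2 at an unadjusted p under 0.05). The part of these markers and of depth in the ribosomal protein values was not tested. Leaving out any 1 of the other 5 libraries gave 0 calls and medians of -0.57 to -0.96.

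**Figure D5:**
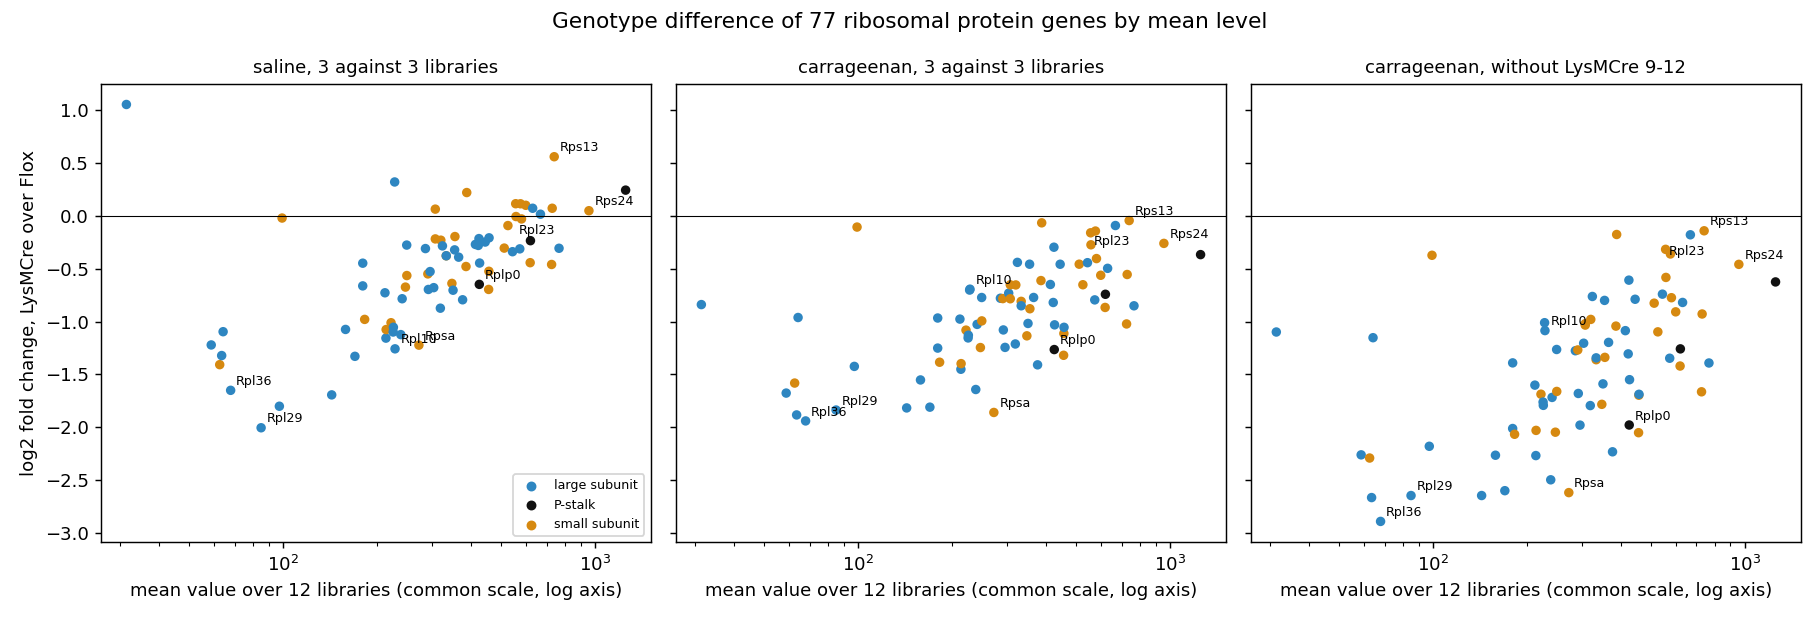
Log2 fold change of LysMCre over Flox for the 77 tested genes against their mean value over 12 libraries (log axis), in saline, in carrageenan and in carrageenan without LysMCre pool 9-12. Points are coloured by large subunit, P-stalk and small subunit. Rpl29 and Rpl36 lie among the lowest in all 3 panels and the abundant Rpl23 lies near 0, while Rps13 is at 0.56 in saline and Rpl13a, the least abundant, is the highest there at 1.06.

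The size of the genotype difference varied with the level of the gene. Split by mean value, the 25 genes of the lowest tercile (31.4 to 241) had a median of -1.10 in saline, the 27 of the middle tercile -0.38 and the 25 of the highest tercile (426 to 1256) -0.21. In carrageenan the medians were -1.38, -0.78 and -0.55. Across the 77 genes, Spearman's rho between mean level and log2 fold change was 0.67 in saline and 0.63 in carrageenan. Over all other genes tested it was -0.23 (n = 9294) and -0.03 (n = 9074). The genes share the same libraries and the level is a mean of the values compared, so these correlations describe these 12 libraries only. For carrageenan against saline, rho was -0.10 in Flox and -0.46 in LysMCre.

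The principal transcripts of the 77 genes had a median length of 886 bases and a GC content of 51.8%, against 3032 bases and 50.2% for the other genes tested with an annotated coding transcript. Across the 77 genes, rho between GC content and the genotype log2 fold change was -0.17 in saline and -0.38 in carrageenan, against -0.04 and -0.20 over the other genes. For length it was 0.17 and 0.21 within the 77 genes. Genes are not independent replicates, and the points share their libraries.

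Other parts of the translation machinery were read from lists chosen with earlier results in view. The 5 tested genes outside the naming rule, such as Rps3a1 and Fau, had medians of 0.73 and 0.37 for carrageenan in Flox and LysMCre and of 0.15 and -0.44 for genotype in saline and carrageenan. Fau, the precursor of the small-subunit protein eS30, had -1.17 ± 0.41 and -1.61 ± 0.59 for genotype, and none of the 5 passed the test in any comparison. Ribosomal protein pseudogenes could be tested in 10 cases in saline and 23 in carrageenan, and 0 passed. In the shallow Flox libraries few reads suffice to pass the filter, so which of them were tested depends on depth and their values are not described.

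Of 10 listed genes of elongation and 27 initiation factors, 0 passed in any comparison. The elongation list holds factors and also Eef2k and Eef1akmt1, enzymes that modify them. The genotype medians of these mixed lists in carrageenan were -0.07 and -0.18, nearer to 0 than that of the ribosomal proteins. Eef1a1, which brings aminoacyl-tRNA to the ribosome, had 1.02 ± 0.43 for carrageenan in LysMCre and -0.996 ± 0.43 for genotype in saline. Eif4a1, the helicase of the initiation complex, had -1.16 ± 0.37 for genotype in saline. A list of 14 genes with TOP mRNAs outside the ribosomal proteins had genotype medians of -0.21 and -0.13. It shares Eef1a1, Eef2, Eif3e, Eif3f, Eif3h and Eif4b with the lists just given and is not a separate set. Pabpc1, the poly(A)-binding protein, was at 0.68 ± 0.26 and 0.80 ± 0.26 for carrageenan in Flox and LysMCre.

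Of 18 genes of mTORC1 and TOP mRNA control, 2 passed in each genotype under carrageenan, 1 higher and 1 lower each time, beside the 4.42% and 2.74% of all genes in Flox and the 2.1% and 0.547% in LysMCre given above. Sesn1, a sestrin that restrains mTORC1, fell under carrageenan in both genotypes (-2.67 ± 0.61, limma adjusted p = 0.0162 in Flox, and -3.10 ± 0.61, adjusted p = 0.0141 in LysMCre). Ddit4, a stress-induced inhibitor of mTORC1, rose in Flox (3.68 ± 0.96, limma adjusted p = 0.0314) and had 2.36 ± 0.96 in LysMCre (adjusted p = 0.316). Larp1, which binds TOP mRNAs, rose in LysMCre (1.01 ± 0.25, limma adjusted p = 0.0472) and had 0.88 ± 0.25 in Flox (adjusted p = 0.0512). Of 37 ribosome biogenesis genes, 0 passed in any comparison, with medians of 0.40 and 0.30 for carrageenan in Flox and LysMCre and of 0.10 and 0.18 for genotype. Of 16 genes of ribosome quality control and stress, Map3k20, the kinase that senses collided ribosomes, rose in Flox (1.96 ± 0.44, limma adjusted p = 0.0146), and Cdkn1a, a p53 target, rose in LysMCre (1.00 ± 0.24, limma adjusted p = 0.0411). The shares of all genes that passed are those given above. Values of these genes in the other genotype are not given, and no gene passed the test of the difference between genotypes. Mitochondrial ribosomal proteins, which serve a separate ribosome, had genotype medians of 0.25 in saline and -0.23 in carrageenan (73 tested, 0 called).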

How the data were processed

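RNA of sorted paw myeloid cells was sequenced from its 3′ ends with a kit that uses molecular identifiers, per the labels' protocols, and STAR, cutadapt and GRCm38 are named in the submitters' processing notes. The signal values deposited by the authors are read counts per gene divided by 1 size factor per library, computed separately for saline and carrageenan. Per the file headers, the authors' deposited comparisons hold log2 fold changes, p-values, adjusted p-values and a test statistic (score), which was not used.

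All values came back as whole reads (100% within 0.001 of a whole number), and saline and carrageenan libraries were then put on a common scale by median ratios over 6501 genes with a read in all 12 libraries. GRCm38 annotation gave a symbol for 55141 gene IDs, and 121 entries that are not genes (spike-ins and ribosomal RNA) were left out. Tests used limma 3.58.1 in R 4.3.3 on log2(value + 1), keeping genes that reached 5 in 3 or more libraries, with Benjamini-Hochberg adjustment over all genes tested and a threshold of 0.05. A fold change is thus on the log2(value + 1) scale and understates the change of low genes. Treatment effects and their difference were fitted over all 12 libraries, and genotype effects within each treatment on the deposited scale. The limma fits were tried on simulated reads with known fold changes, drawn gene by gene with the same dispersion. The simulation held no pool effects and no genes moving together, so it does not check the tests under those conditions.

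Within a group the libraries are separate pools of mice by their titles, and p-values measure the spread between libraries of a group. The same pool numbers recur in saline and carrageenan, and the main treatment fits take these libraries as independent. Over all genes, deviations of same-number pools in saline and carrageenan had r = 0.20, 0.34 and 0.43 in LysMCre and 0.01, -0.02 and 0.11 in Flox. LysMCre pools of unlike number had r from -0.40 to 0.24. Over the ribosomal protein genes, same-number pools had r = 0.13, 0.70 and 0.83 in LysMCre and 0.23, -0.22 and 0.68 in Flox. Pools of unlike number then had r from -0.79 to 0.71 in LysMCre and from -0.58 to 0.48 in Flox. The labels do not say that a number marks the same mice. Replicate libraries differed by more than sampling noise (chi-square per degree of freedom 2.71 to 16.3). Intervals of shares are exact binomial at 95% and cover counting error only.

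The genes, the other lists and the rules were chosen with earlier results of these data known. Named genes are the P-stalk genes, Rpsa and the paralog pairs, in each comparison the 5 genes with the smallest p, the highest and the lowest, the 5 with the most reads, and up to 3 of each other list; a gene that this rule names but the text does not is not reported here. Alternatives covered the pseudocount, the filter, the scale, the pairing, each library left out, edgeR 4.0.16, DESeq2 1.42.0 and limma voom on the recovered reads. Promoters came from RefSeq (GRCm38.p6).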

Additional observations from a re-analysis of the deposited data

How the results depend on the processing

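None of the 77 ribosomal protein genes passed the threshold in either treatment comparison or in the difference under any alternative run. Their median kept its sign under other pseudocounts, filters, scales and tools, from 0.52 to 0.69 for carrageenan in Flox and from 0.14 to 0.42 in LysMCre, but not under every omission of a library, as given above. For genotype, DESeq2 called 2 of them and 23 genes in saline and 10 genes in carrageenan, and leaving out LysMCre carrageenan 9-12 gave 60 of them and 420 genes, against 0 with every other library left out. With the pool numbers as a replicate block, 737 genes passed in Flox, 264 in LysMCre and 0 for the difference, with no ribosomal protein gene among them. A block over the LysMCre pools alone, chosen after seeing the data, gave 621 and 265. Over all genes, the counts of 734 in Flox and 271 in LysMCre became 418 and 143 without a filter, and the latter 733 with edgeR, 915 with DESeq2 and 916 with limma voom. Leaving out 1 library gave 350 (without Flox carrageenan 4-7) to 1080 genes (without Flox saline 8-10) in Flox and 84 (without LysMCre saline 1-4) to 521 (without Flox saline 1-3) in LysMCre.

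Signs turned with the library left out, and the cause was not tested. Without LysMCre carrageenan 9-12, 62 of the 77 genes were below 0 for carrageenan in LysMCre, against 3 with all libraries, and 15 were with scaling by total reads. Without Flox saline 1-3, 41 were above 0 for the difference, against 4. The named genes that turned follow. For carrageenan in Flox, Rps27l was at -0.0064 with edgeR, and, leaving out a library, ran from -0.34 (without Flox saline 1-3) to 0.45, with -0.041 without Flox carrageenan 8-10. In LysMCre, Rpsa ran from -0.32 (without LysMCre carrageenan 9-12) to 0.95, with -0.056 without LysMCre saline 5-8, and Rplp0 from -0.19 (again without 9-12) to 1.01. Rplp1 ran from -0.38 to 0.17 (without LysMCre saline 9-12), with 0.039 without LysMCre carrageenan 5-8. For genotype in saline, Rpl13a was at -0.36 with edgeR, -0.29 with DESeq2 and from -0.71 (without Flox saline 1-3) to 2.10 leaving out a library. In carrageenan, Rps13 ran from -0.19 to 0.087 (without Flox carrageenan 8-10), with 0.0016 without LysMCre carrageenan 1-4 and 0.0094 without 5-8. Depth limits the low genes most: in Flox saline 1-3, 3 reads stand for 16.5 on the common scale.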
